A study of Mus musculus with 12 samples.

Results

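The contractile apparatus of smooth muscle was followed through 8 of its genes in the small intestine of mice that had fasted for 12, 24 or 72 hours and of fed mice. The genes were those of desmin (Des), smooth muscle α-actin (Acta2), enteric γ-actin (Actg2), smooth muscle myosin heavy chain (Myh11), calponin (Cnn1), a myosin regulatory light chain (Myl9), β-tropomyosin (Tpm2) and smoothelin (Smtn). Every probe that carried one of these names in the 12 h files and was not a control was taken. This gave 8 probes, 1 for each gene, among the 20281 probes of the array. The members were chosen on changes at the fasted time points of these same arrays, so their changes are given as a description, and their adjusted p-values support nothing beyond the values themselves. The mice were male, of the FVB strain and 6 weeks old. Fasted mice sat in metabolic cages without chow, and from 24 h on an infrared lamp warmed them, which cannot be told apart from fasting itself. Each of 12 arrays carried Cy3-labelled RNA of full-thickness intestine from a pool of 2 mice, 3 pools per time point, against a Cy5-labelled reference from 6 fed mice. For the third fed pool, the source of the reference is given as the same mice that made up its Cy3 sample, whereas the protocol of its labelling gives all 6 fed mice. The labelling notes of all fasted arrays name the same pair of intestines, and that of the second fed array names the pair of the first, so that the pools are taken as separate on their titles and sources alone. The dyes were not swapped. Because whole tissue was extracted, fewer muscle cells and less RNA per cell cannot be told apart.

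In a smooth muscle cell, actin filaments slide past filaments of myosin once the regulatory light chain of myosin has been phosphorylated. Tropomyosin, calponin and smoothelin lie along the actin filament, and calponin can inhibit the myosin ATPase. Desmin forms intermediate filaments that tie the dense bodies and the cell membrane together. In the gut these proteins fill the circular and longitudinal muscle layers and the muscularis mucosae, and Acta2 is also made by pericytes, arterial muscle and myofibroblasts. Many genes of this kind are controlled by serum response factor (Srf) through CArG boxes, palindromic elements with an A- and T-rich core.

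CArG boxes were searched on both strands in RefSeq promoter windows of the assembly GRCm38.p6, 250 bases before to 50 bases after an annotated start. Windows were found for 6 of the 8 genes, namely Des, Acta2, Cnn1, Myl9, Tpm2 and Smtn. A box with a core of A and T alone was in 1 of the 6 windows, that of Myl9. A box with a single C or G in the core was in 2 of the 6, those of Acta2 and Myl9. Of all 32851 windows, 1.63% held the first form and 8.50% the second. The 4 elements are all the matches found in the windows of the members. Whether a box goes with the course of its gene during fasting was not tested. Each is given as 30 bases, 5′ to 3′ on the strand of the gene, with the box in capitals. The annotated start on which the window is placed lies inside the gene locus given further on for Acta2, Myl9, Cnn1 and Tpm2. Both boxes of Acta2 are within its locus, whereas those of Myl9 come before its locus.
Acta2, first box, chr19:34255438-34255467, minus strand: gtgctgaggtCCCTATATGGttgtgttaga
Acta2, second box, chr19:34255388-34255417, minus strand: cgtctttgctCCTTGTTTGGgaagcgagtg
Myl9, first box, chr2:156775293-156775322, plus strand: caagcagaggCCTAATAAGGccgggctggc
Myl9, second box, chr2:156775355-156775384, plus strand: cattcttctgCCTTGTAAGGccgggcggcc
A match of letters is a description and not a bound site. No such letters were in the windows of Des, Cnn1, Tpm2 and Smtn.

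Values are log2 ratios of Cy3 over Cy5 after background correction and quantile normalization of all channels, so 0 stands for the level of the fed reference. A change is a difference between mean log ratios, with the standard error (SE) of limma's moderated fit over all probes. It is called at a Benjamini-Hochberg adjusted p under 0.05. Fed and 72 h arrays came in one file format with a median Cy5 intensity of 124 to 142, whereas the 12 h and 24 h arrays came in another, with 393 to 627. A difference of the 12 h or 24 h pools from the fed pools therefore cannot be told apart from the format, whereas 72 h against fed and 24 h against 12 h lie within one. The median signal was 3.36 to 6.00 times background in Cy3 and 1.65 to 2.12 times in Cy5. Of the members, Des was not well above background in Cy3 on the third fed array, and Des and Smtn not in Cy5 on the third 12 h array. The spots of Myl9 on the first fed array and of Acta2 on the first 12 h array were marked as outliers and left out, which gave n = 2 there. No member spot was saturated. The third fed and the third 12 h arrays stood apart for several members, and several of the changes are also given without them.

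At 12 h of fasting, Des, Acta2, Actg2 and Smtn rose, which is 4 of the 8 genes, beside 4.87% of all probes called higher. None of the 8 was called lower, beside 6.02% of all probes. At 24 h, Des and Smtn were higher and no member was lower, beside 3.76% and 6.26% of all probes. At 72 h, Des and Myh11 were higher and Tpm2 lower, beside 4.81% and 5.79% of all probes. The 3 median changes of the 8 genes, in order of time, were 0.92, 0.43 and 0.08, against medians over all probes of -0.02, 0.02 and 0.01. With 1 probe per gene, the median over probes is the median over genes. Since these contrasts served to choose the genes, nothing is read from the counts. With arrays centred on their median in place of quantile normalization, Smtn was the only member called at 12 h. There 3026 of all probes were called, against 2208 with quantile normalization. In a fit of the fed and 12 h arrays alone none of the 8 and none of all probes was called by limma, although 4 members had an unadjusted p under 0.05.

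**Figure D1:**
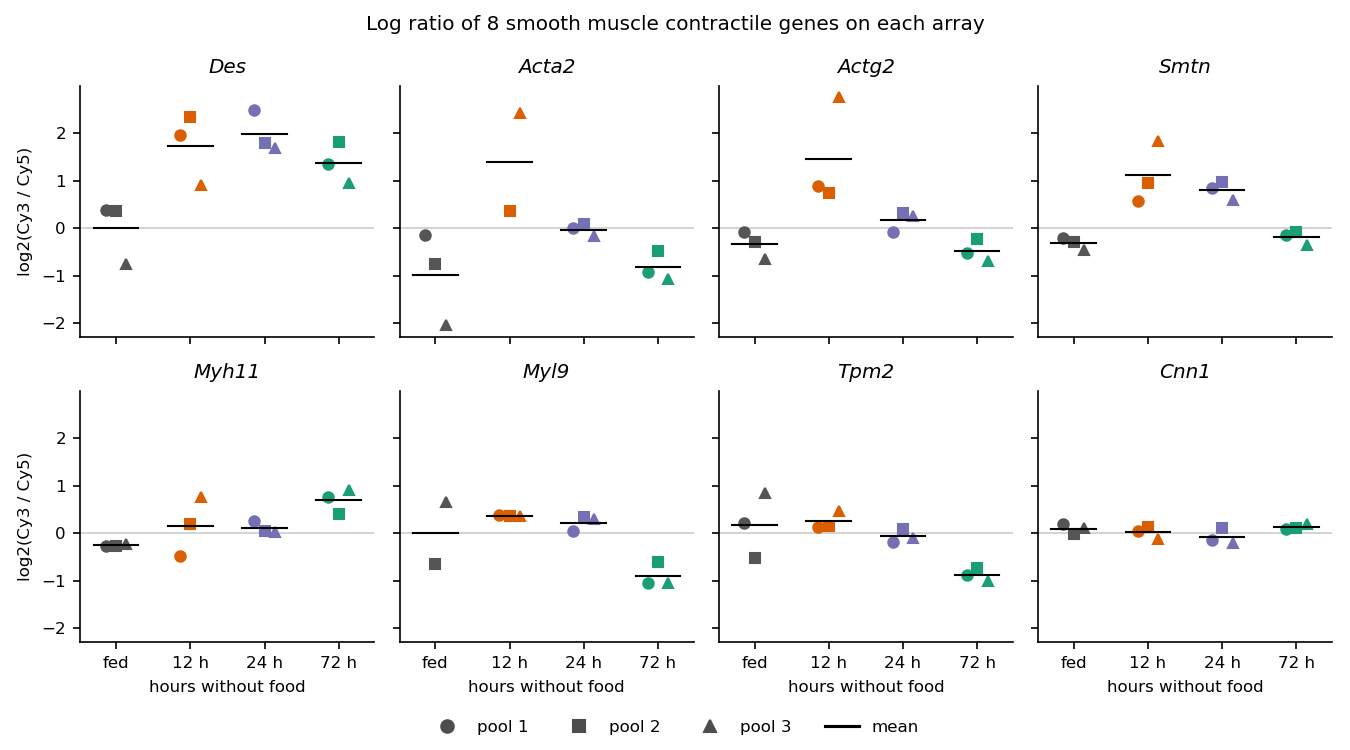
Log2 ratio of Cy3 over Cy5 (vertical axis) of the 8 genes in fed mice and after 12, 24 and 72 h without food, with a symbol for each pool and a line for the mean. Des lay above the fed pools at each time, Acta2, Actg2 and Smtn peaked at 12 h, Myl9 and Tpm2 were at their lowest at 72 h, and Cnn1 stayed between -0.21 and 0.20.

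Des (chr1:75360292-75368579 in GRCm38.p6), the intermediate filament gene, was the only member called higher at all 3 fasted time points. Its log ratios in the fed pools were 0.38, 0.37 and -0.75. They were 1.95, 2.33 and 0.91 at 12 h and 2.48, 1.80 and 1.69 at 24 h, with 1.35, 1.82 and 0.96 at 72 h. No fasted pool overlapped a fed pool, and the third fed pool was the lowest. The change was 1.73 ± 0.37 (SE, n = 3 and 3) at 12 h, a 3.31-fold rise (limma, adjusted p = 0.0135). It was 1.99 ± 0.37 at 24 h, or 3.97-fold (limma, adjusted p = 0.00712), and 1.38 ± 0.37 at 72 h, or 2.59-fold (limma, adjusted p = 0.0300). In descending order the means were 24 h, 12 h, 72 h and fed, and none of the 3 fasted time points differed from another past the threshold. Without the third fed array the 12 h change was 1.35 (limma, adjusted p = 0.0640) and the 72 h change 1 (limma, adjusted p = 0.147), so both of these calls were lost. Without the first or the second 72 h array the 72 h call was lost too, with changes of 1.39 (limma, adjusted p = 0.103) and 1.16 (limma, adjusted p = 0.124). Of the other settings, the 12 h call was lost with median centring, at 1.23 (limma, adjusted p = 0.0517), and with the scanner software's log ratio or the deposited value table, at 2.08 (limma, adjusted p = 0.0686). The 72 h call was lost without background correction, at 0.97 (limma, adjusted p = 0.0999), and in Cy3 alone, at 1.19 (limma, adjusted p = 0.128). In Cy3 alone the 12 h call was lost too, at 1.26 (limma, adjusted p = 0.0818). In a fit of the fed and 12 h arrays alone it was also lost, at 1.73 (limma, adjusted p = 0.101). The 24 h call held under all 26 alternatives run, with changes from 1.61 to 2.47. The Cy5 signal of Des was 1.53 to 2.62 times background over the arrays.

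The actin genes moved at 12 h. Acta2 (chr19:34240336-34255585), the actin of vascular muscle, pericytes and myofibroblasts as well as of the gut wall, had log ratios of -0.15, -0.76 and -2.04 in the fed pools and of 0.36 and 2.43 in the second and the third 12 h pools. They were 0.00, 0.08 and -0.16 at 24 h and -0.93, -0.48 and -1.06 at 72 h. Both 12 h pools lay above the fed pools, but they were farther apart from each other than the 24 h or the 72 h pools were. The 12 h change was 2.38 ± 0.53 (SE, n = 2 and 3), or 5.19-fold (limma, adjusted p = 0.0167). With the outlier spot kept it was 2.05 (limma, adjusted p = 0.0223). The call was lost without the third fed array, at 1.85 (limma, adjusted p = 0.0623), or without the third 12 h array, at 1.34 (limma, adjusted p = 0.106). Without both arrays it was 0.81 (limma, adjusted p = 0.107). Without the third 12 h array 1 pool was left at 12 h, whose spread is then assumed to be that of the other groups. The changes of 0.96 ± 0.48 at 24 h and 0.16 ± 0.48 at 72 h did not pass the test. The mean of the 3 fed pools was -0.98 ± 0.96 (SD), although the reference came from fed mice, and on Cy5 the fed arrays differed by only 0.31 for this probe.

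Actg2 (chr6:83512909-83536251), the actin characteristic of visceral muscle, had log ratios of -0.07, -0.29 and -0.64 in the fed pools. They were 0.88, 0.74 and 2.75 at 12 h and -0.08, 0.33 and 0.26 at 24 h, with -0.52, -0.22 and -0.68 at 72 h. All 12 h pools were above all fed pools, the third by far. The 12 h change was 1.80 ± 0.39 (SE, n = 3 and 3), or 3.47-fold (limma, adjusted p = 0.0134). It was smaller but still called without the third 12 h array, at 1.15 (limma, adjusted p = 0.00687), and without both arrays that stood apart, at 0.99 (limma, adjusted p = 0.0183), but it was not called without the third fed array, at 1.64 (limma, adjusted p = 0.0625). At 24 h and 72 h the pools overlapped the fed pools, with changes of 0.50 ± 0.39 and -0.14 ± 0.39. For both actins the order of the means was 12 h, 24 h, then fed and 72 h, and fed and 72 h did not differ beyond their spread (the 72 h mean was the lower for Actg2 and the higher for Acta2). Probe sequences were not used here, so whether each actin probe also binds the transcript of the other actin was not tested.

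Smtn (chr11:3517522-3539292), whose product binds actin and marks contractile smooth muscle cells, was called higher at 12 h and 24 h but not at 72 h. Its log ratios were -0.21, -0.29 and -0.46 in the fed pools, 0.57, 0.95 and 1.84 at 12 h and 0.84, 0.97 and 0.60 at 24 h, with -0.14, -0.08 and -0.36 at 72 h. All 6 pools of 12 h and 24 h were above the 3 fed pools, and the 72 h pools overlapped the fed ones. The change was 1.44 ± 0.25 (SE, n = 3 and 3), or 2.71-fold, at 12 h (limma, adjusted p = 0.00589). It was 1.12 ± 0.25, or 2.18-fold, at 24 h (limma, adjusted p = 0.0160), and 0.13 ± 0.25 at 72 h (limma, adjusted p = 0.805). The 12 h call held in every fit that left out an array, and the change was 1.07 without the third 12 h array. The 24 h call was lost without the third fed array (1.05; limma, adjusted p = 0.0556), the first 24 h array (1.10; limma, adjusted p = 0.0541) or the second (1.04; limma, adjusted p = 0.0518).

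Myh11 (chr16:14194527-14292188), the motor of the thick filament, was higher at 72 h. Its fed log ratios were -0.26, -0.27 and -0.23. They were -0.49, 0.19 and 0.75 at 12 h and 0.25, 0.04 and 0.02 at 24 h, with 0.77, 0.40 and 0.91 at 72 h. The 12 h pools lay on both sides of the fed pools, whereas the 24 h and 72 h pools were all above them. The change was 0.40 ± 0.25 at 12 h (limma, adjusted p = 0.293) and 0.36 ± 0.25 at 24 h (limma, adjusted p = 0.369). At 72 h it was 0.95 ± 0.25 (SE, n = 3 and 3), or 1.93-fold (limma, adjusted p = 0.0243). Without any single fed array, or without the first or the third 72 h array, the change was 0.84 to 0.96 and no longer called (limma, adjusted p between 0.0595 and 0.105). With arrays centred on their median in place of quantile normalization it was 0.31 (limma, adjusted p = 0.541), and the 12 h and 24 h changes turned to -0.30 and -0.17. Without the first 12 h array the 12 h change was 0.73 and called (limma, adjusted p = 0.0221).

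Myl9 and Tpm2 followed another course, with no call at 12 h or 24 h and their lowest values at 72 h. Myl9 (chr2:156775408-156781657), the regulatory light chain whose phosphorylation starts contraction, goes by the name Trrp2 in the fed files. Its log ratios were -0.65 and 0.66 in the second and the third fed pools, 0.38, 0.35 and 0.36 at 12 h and 0.05, 0.33 and 0.29 at 24 h, with -1.05, -0.61 and -1.05 at 72 h. The fed pools were far apart, and 1 of the 72 h pools overlapped them. The 72 h change of -0.91 ± 0.29 (SE, n = 3 and 2) did not pass the test (limma, adjusted p = 0.0672). It did with the outlier spot kept, at -0.88 (limma, adjusted p = 0.0379), and without the second fed array, at -1.56 (limma, adjusted p = 0.00242), and also with median centring and without the third 12 h array. Without the third fed array, however, it was -0.25 (limma, adjusted p = 0.594), with 1 fed pool left. The changes at 12 h and 24 h were 0.36 ± 0.29 and 0.22 ± 0.29. Without the third fed array the first of these was 1.01 (limma, adjusted p = 0.0410) and without the second it was -0.29.

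Tpm2 (chr4:43513726-43523583), a tropomyosin of the thin filament, had log ratios of 0.21, -0.52 and 0.85 in the fed pools, 0.12, 0.16 and 0.47 at 12 h and -0.19, 0.08 and -0.10 at 24 h, with -0.87, -0.73 and -1.01 at 72 h. All 72 h pools were below all fed pools. The 72 h change was -1.05 ± 0.26 (SE, n = 3 and 3), or 2.07-fold lower (limma, adjusted p = 0.0184). It was lost without the first or the third fed array, at -1.04 (limma, adjusted p = 0.0604) and -0.72 (limma, adjusted p = 0.0771), or the first or the third 72 h array, at -1.05 (limma, adjusted p = 0.0743) and -0.98 (limma, adjusted p = 0.0670). The changes of 0.07 ± 0.26 at 12 h and -0.25 ± 0.26 at 24 h did not pass the test. For Myl9 and Tpm2 alike the fed pools overlapped those of 12 h and those of 24 h. All 12 h pools lay above all 24 h pools, without a call of that difference, and the mean at 72 h came last.

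Cnn1 (chr9:22099221-22109221), calponin, did not change in its log ratio past the test. Its values were 0.19, -0.01 and 0.10 in the fed pools, 0.05, 0.13 and -0.13 at 12 h and -0.15, 0.11 and -0.21 at 24 h, with 0.09, 0.11 and 0.20 at 72 h. The pools of all time points overlapped. The changes were -0.08, -0.18 and 0.04, each with an SE of 0.15 (limma, adjusted p = 0.761, 0.468 and 0.910), and no difference among the 4 time points passed the test.

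Among the fasted time points, 5 of the members fell from 12 h to 72 h, in contrasts made of the same pools on which the choice of genes rested. Acta2 fell by 2.21 ± 0.53 (SE, n = 3 and 2; limma, adjusted p = 0.0196), Actg2 by 1.94 ± 0.39 (limma, adjusted p = 0.00728) and Smtn by 1.31 ± 0.25 (limma, adjusted p = 0.00592). Myl9 fell by 1.27 ± 0.26 (limma, adjusted p = 0.00972) and Tpm2 by 1.12 ± 0.26 (limma, adjusted p = 0.0145). Thus 5 of the 8 genes were called lower and none higher, beside 4.91% and 5.84% of all probes. The 3 values of Actg2, Smtn, Myl9 and Tpm2 at 72 h lay below all of those at 12 h. The call of Acta2 was lost without the third 12 h array, at -1.18 (limma, adjusted p = 0.147), or without the first or the third 72 h array. It was also lost with the scanner software's log ratio and with the deposited value table, at -2.23 (limma, adjusted p = 0.0623). Without the third 12 h array the change of Actg2 was -1.29 and still called (limma, adjusted p = 0.00162). With median centring the calls of Acta2, Myl9 and Tpm2 were lost, and in a fit of the 12 h and 72 h arrays alone those of Acta2, Actg2 and Smtn. Those of Myl9 and Tpm2 were lost without the first 72 h array, and that of Tpm2 also without the third one. From 24 h to 72 h, Myl9 fell by 1.13 ± 0.26 (limma, adjusted p = 0.0172) and Smtn by 1 ± 0.25 (limma, adjusted p = 0.0227), beside 4.72% of all probes lower and 5.88% higher. Each of these calls was lost without the second 24 h array or without the first or the third 72 h array, with changes between -1.07 and -0.92. Smtn also lost its call without the first 24 h array and Myl9 without the third one. From 12 h to 24 h no member was called by limma, whereas 1.23% of all probes were higher and 1.71% lower. At an unadjusted p under 0.05 there were 2 members, Acta2 and Actg2, with changes of -1.42 ± 0.53 and -1.29 ± 0.39.

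The dyes were then looked at apart. Cy3 carries the mice of each time point, whereas Cy5 carries the same kind of fed reference on each array, so a change in Cy5 between arrays is no change between mice. In Cy3 alone, 3 of the 8 genes were called at 12 h, namely Actg2 at 0.70 ± 0.20 and Smtn at 0.55 ± 0.16 higher and Cnn1 at -0.71 ± 0.18 lower, where 15% of all probes were called in either direction. Des at 1.26 ± 0.47 (limma, adjusted p = 0.0818) and Acta2 at 0.96 ± 0.36 (limma, adjusted p = 0.0848) pointed up in Cy3 without passing the test. At 24 h the genes called in Cy3 were Des at 1.83 ± 0.47, Smtn at 0.64 ± 0.16 and Cnn1 at -1.20 ± 0.18, beside 24.6% of all probes. At 72 h they were Myh11 at 0.99 ± 0.21 and Tpm2 at -1.08 ± 0.26, beside 8.68%.

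In Cy5 alone, 4 of the 8 genes were called at 12 h, all lower than on the fed arrays, beside 21.9% of all probes in either direction. They were Acta2 at -1.42 ± 0.41, Actg2 at -1.09 ± 0.33, Smtn at -0.88 ± 0.29 and Cnn1 at -0.63 ± 0.20. For Acta2, Actg2 and Smtn, the larger part of the 12 h change in the log ratio was thus in the reference channel. Much of it was on one array, since the Cy5 value of Actg2 was 9.34 and 9.30 on the first and second 12 h arrays and 7.62 on the third, and that of Smtn was 7.52, 7.24 and 5.99. At 24 h Cnn1 alone was called in Cy5, at -1.02 ± 0.20, beside 20.4% of all probes. At 72 h, 0% of all probes and no member were called in Cy5 by limma, and no member had an unadjusted p under 0.05. Cnn1 is the case where both channels moved together. Its Cy3 values were 10.69, 10.77 and 10.75 on the fed arrays and 9.66, 9.49 and 9.45 at 24 h, its Cy5 values 10.50, 10.78 and 10.65 and then 9.81, 9.39 and 9.66, and its log ratio remained near 0. The changes at 72 h lay mostly in Cy3, since the Cy5 changes of Des, Myh11 and Tpm2 were -0.18 ± 0.19, 0.05 ± 0.22 and -0.03 ± 0.14. The part that the file format and the third 12 h array had in the 12 h changes was not tested.

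**Figure D2:**
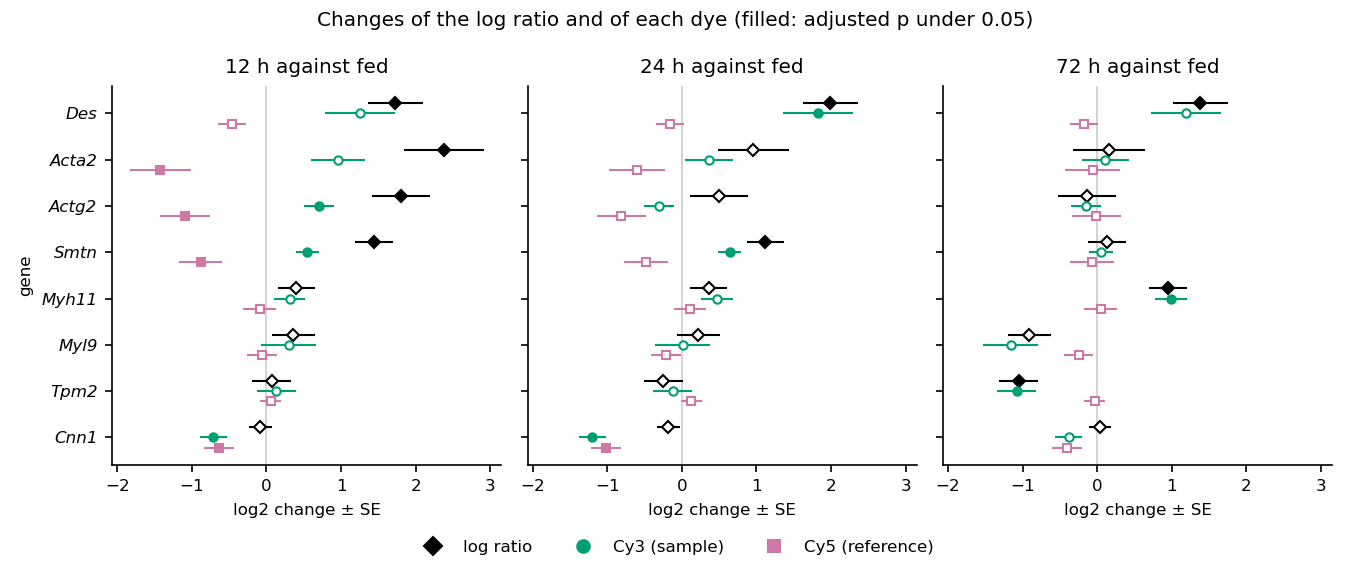
Log2 change (horizontal axis, ± SE) of each gene at 12, 24 and 72 h against fed for the log ratio (diamonds), Cy3 of the fasted or fed pools (circles) and Cy5 of the reference (squares), filled where the adjusted p is under 0.05. At 12 h Acta2, Actg2 and Smtn were above 0 in Cy3, Acta2 without a call, and below 0 in Cy5, at 72 h the changes of Myh11 and Tpm2 were in Cy3, and Cnn1 shifted in both dyes alike.

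The members did not move as 1 group. Over the 12 arrays, the log ratios of the 28 pairs of genes had a median Pearson correlation of 0.21, with 18 pairs above 0 and a range from -0.55 to 0.94. The arrays share normalization, the reference and, within a time point, the fasting period, so these values are a description. Acta2, Actg2 and Smtn went together, at 0.94 for the actins, 0.90 for Acta2 with Smtn and 0.88 for Actg2 with Smtn. In Cy3 alone the same pairs were at 0.72, 0.53 and 0.21. Myl9 and Tpm2 went together at 0.94 in the log ratio and at 0.96 in Cy3. Their fed pools took part in this, since both genes were low in the second fed pool and high in the third. Myh11 ran against both, at -0.55 with Myl9 and -0.51 with Tpm2, and at -0.75 and -0.74 in Cy3. Des was nearest to Smtn, at 0.53 in the log ratio and 0.70 in Cy3. Of these pairs, Acta2 and Myl9 held the boxes printed above in their windows, whereas Smtn and Tpm2 held none. A link between box and course was not tested.

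**Figure D3:**
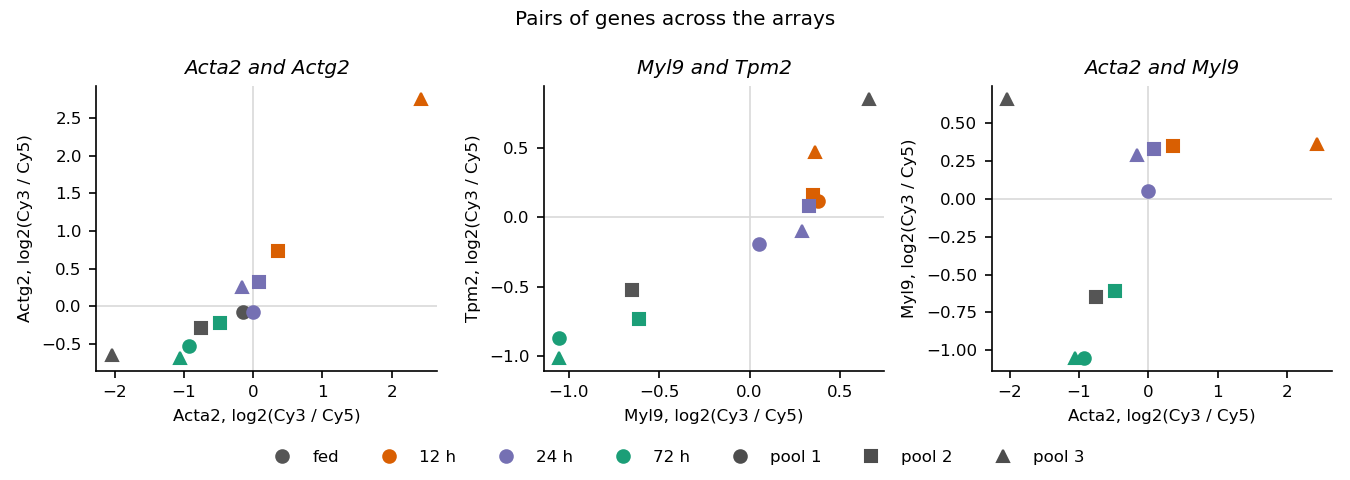
Log2 ratios of 2 genes on each array, with colours for the time points and symbols for the pools; arrays with an outlier spot of either gene are left out. Acta2 and Actg2 lie along a rising line that ends at the third 12 h pool, Myl9 and Tpm2 along another from the 72 h pools to the third fed pool, and the third fed pool is low for Acta2 and high for Myl9.

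The spread between pools of the same time point was wide for these genes. In the fed group the median SD of their log ratios was 0.47, against 0.16 over all probes with 3 values, and 4 of the 8 lay above the 90th percentile of 0.36. At 12 h the medians were 0.64 and 0.29, with 5 of the 8 above the 90th percentile of 0.62. At 24 h they were 0.16 and 0.17, and at 72 h 0.24 and 0.14, with 1 member above the 90th percentile at each. Thus the members were most spread among the fed and the 12 h pools. The SDs of Myl9 in the fed group and of Acta2 at 12 h were over 2 pools, and both were counted above the 90th percentile.

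Other probes with the same course were looked for among 6549 with a gene number. Each had a value and was well above background in Cy3 on all 12 arrays. Nearest to Des were Pl6-pending (Pearson r = 0.944 over 12 arrays), Egln2 (0.943), which encodes an oxygen-dependent prolyl hydroxylase, Cpsf1 (0.940), a factor of mRNA 3′ processing, Ptov1 (0.940) and 1300018I05Rik (0.940). Pl6-pending had changes of 1.13, 1.43 and 0.78 at 12, 24 and 72 h in the log ratio, and of 0.94, 1.54 and 0.78 in Cy3. Those of Egln2 were 0.44, 0.66 and 0.49 in the log ratio but -0.46, 0.12 and 0.24 in Cy3. Nearest to the mean of the 8 genes were Srm (0.976), spermidine synthase, Hspcb (0.968), the older name of a cytosolic heat shock protein 90, Icos (0.960), AI181996 (0.960) and LOC224820 (0.957). Srm had changes of 0.88, 0.61 and 0.01 in the log ratio and Hspcb of 1.52, 0.75 and 0.09. In Cy3 they were 0.77, 0.25 and -0.02 for Srm and 0.61, 0.71 and -0.02 for Hspcb. None of these 10 probes was on a list of smooth muscle genes used here. List probes with an outlier spot, such as those of Mylk, Myl6 and Dstn, could not be picked. Nothing is read from this about other smooth muscle genes.

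Of 28 further genes of the smooth muscle apparatus, 19 had a probe, and the brightest probe stood for each. Which cells of the full-thickness wall carried their RNA was not tested. At 12 h, 4 of the 19 rose and none fell, beside 4.87% and 6.02% of all probes, with a median change of 0.08. They were Flna (filamin A, an actin crosslinker) at 1.65 ± 0.45, Mylk (myosin light chain kinase, which phosphorylates the light chain) at 1.57 ± 0.34, Tln1 (talin, which links integrins to actin) at 1.14 ± 0.24 and Zyx (zyxin of focal adhesions) at 0.77 ± 0.22. The Cy5 changes of these 4 genes were -1.05, -0.43, -0.91 and -0.59, and Mylk alone of them was called higher in Cy3. At 24 h Mylk (1.21 ± 0.34), Tln1 (1.16 ± 0.24) and Zyx (1.07 ± 0.22) were again higher, each also called in Cy3, and Dstn (destrin, which severs actin filaments) was lower at -0.98 ± 0.25 with n = 2 at 24 h. The median was 0.31, and 3.76% of all probes were called higher and 6.26% lower. The fed mean of Mylk was over 2 pools, and its second, dimmer probe was at -0.36 at 12 h and -0.51 at 24 h without a call.

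At 72 h, none of the 19 rose and 4 fell, beside 4.81% and 5.79% of all probes, with a median of 0.12. These were Ldb3 (a Z-disc and dense-body adaptor) at -1.39 ± 0.23, Myl6 (the essential light chain that pairs with Myl9) at -0.93 ± 0.25, Dstn at -0.91 ± 0.22 and Svil (supervillin) at -0.67 ± 0.16. The fed value of Myl6 came from 1 pool, since the spots of the others were outliers, and its spread is assumed to be that of the other groups. Ldb3, Myl6 and Dstn were also called lower in Cy3, at -1.34, -1.48 and -0.89, whereas Svil was not, at -0.42. A second, dimmer probe of Ldb3 was lower too, at -0.63 (limma, adjusted p = 0.0413), and also at 12 h (-0.69), where the brighter probe was not (-0.03). A second probe of Dstn was at 0.08 at 72 h without a call. Tpm1, the other tropomyosin of this muscle, had changes of -0.19, 0.31 and 0.27 at the 3 time points and did not pass the test at any.

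Of 14 measured genes that control contraction, none rose in the log ratio at any of the 3 time points by its brightest probe. Over all probes, 4.87%, 3.76% and 4.81% were called higher there. At 12 h 3 of the 14 were lower in the log ratio, beside 6.02% of all probes, Ppp1cb and Rock1 among them. Ppp1cb (the catalytic subunit of myosin phosphatase) was at -0.81 ± 0.19, with n = 2 at 12 h. Rock1 (the kinase that inhibits that phosphatase) was at -0.81 ± 0.18. Split by dye, Ppp1cb moved by -0.34 in Cy3 and 0.47 in Cy5, and Rock1 by -0.36 and 0.44. For both genes the larger part of the 12 h change thus lay in the reference channel, and neither Cy3 change passed the test. At 24 h only Ppp1cb was lower, at -0.70 ± 0.17, beside 6.26% of all probes. At 72 h 3 were lower, beside 5.79% of all probes. Among the 3 were Ppp1cb at -0.82 ± 0.17 and Gna11 (a G protein of contractile receptors) at -0.58 ± 0.17. Ppp1cb moved in Cy3 by -0.6 at 24 h and -0.65 at 72 h, and Gna11 by -0.64 at 72 h. None of these 3 Cy3 changes passed the test. The matching Cy5 changes were 0.1, 0.17 and -0.06, so these differences lay mostly in Cy3. Counted by Cy3, the list held no called gene at 12 h, 1 higher at 24 h and 2 lower at 72 h. Over all probes, 15%, 24.6% and 8.68% were called in Cy3 in either direction. The medians of the list in the log ratio were -0.23, 0.04 and 0.02. A dimmer probe of Ppp1cb had changes of -0.07, -0.42 and -0.17 without a call. Of 2 dimmer probes of Rock1, the first was lower at 12 h, at -0.66 (limma, adjusted p = 0.0447), and the other higher at 72 h, at 0.61 (limma, adjusted p = 0.0235).

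Of 10 transcriptional regulators of smooth muscle, Srf itself had changes of -0.12, 0.04 and -0.15 and was not called at any time point. Klf5, a Krüppel-like factor of crypt epithelium and of growing smooth muscle, was higher at 24 h, at 1.04 ± 0.22 over 2 fed pools. This 24 h change was 0.40 in Cy3 without a call and -0.64 in Cy5, so the larger part was in the reference channel. Its 12 h log ratio was 2.91 above the fed mean in the 1 pool measured, with changes of -0.02 in Cy3 and -2.93 in Cy5, so that the difference lay in the reference channel. It passed limma's test, which took the spread of the single pool from the other groups. Fhl2, an Srf cofactor, was lower at 12 h, at -0.82 ± 0.16, and Prrx1 and Mef2c were lower at 24 h, at -0.92 ± 0.23 and -0.67 ± 0.18, whereas a dimmer Mef2c probe was at 0.05. None of the 10 was called at 72 h, beside 4.81% of all probes higher and 5.79% lower. The medians were -0.06, 0.15 and -0.13.

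Of 11 measured non-muscle actin and myosin genes and their partners, with no tropomyosin among them, none was called at 12 h or 24 h. An unadjusted p under 0.05 was found for 2 and 0 of them. Over all probes, 4.87% and 3.76% were called higher at these times and 6.02% and 6.26% lower. At 72 h Cfl1 (cofilin) fell by 0.90 ± 0.19 as the only one of the 11, and their median was -0.31. Over all probes, 4.81% were higher and 5.79% lower at 72 h. Of 12 measured genes of striated muscle, Tnni1 (slow skeletal troponin I) and Actc1 (cardiac α-actin) rose at 12 h, at 1.54 ± 0.26 and 1.38 ± 0.30, and at 24 h, at 1.11 ± 0.26 and 1.10 ± 0.30. At 12 h the change of Actc1 was 0.53 in Cy3 without a call and -0.85 in Cy5, whereas Tnni1 was called in Cy3, at 1.21. At 24 h both were called in Cy3, at 1.31 for Actc1 and 1.16 for Tnni1. Tnnc1 and Myl2 were lower at 12 h, at -1.24 ± 0.33 and -0.79 ± 0.18, over 2 pools. Myl2 was well above background in Cy3 on only 7 of the 12 arrays. At 72 h Actc1 was the only one called, at 1.16 ± 0.33 over 2 pools at 72 h, and its Cy3 change of 1.42 was not called. Actc1 is close in sequence to the smooth muscle actins, and whether its probe binds their transcripts was not tested.

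**Figure D4:**
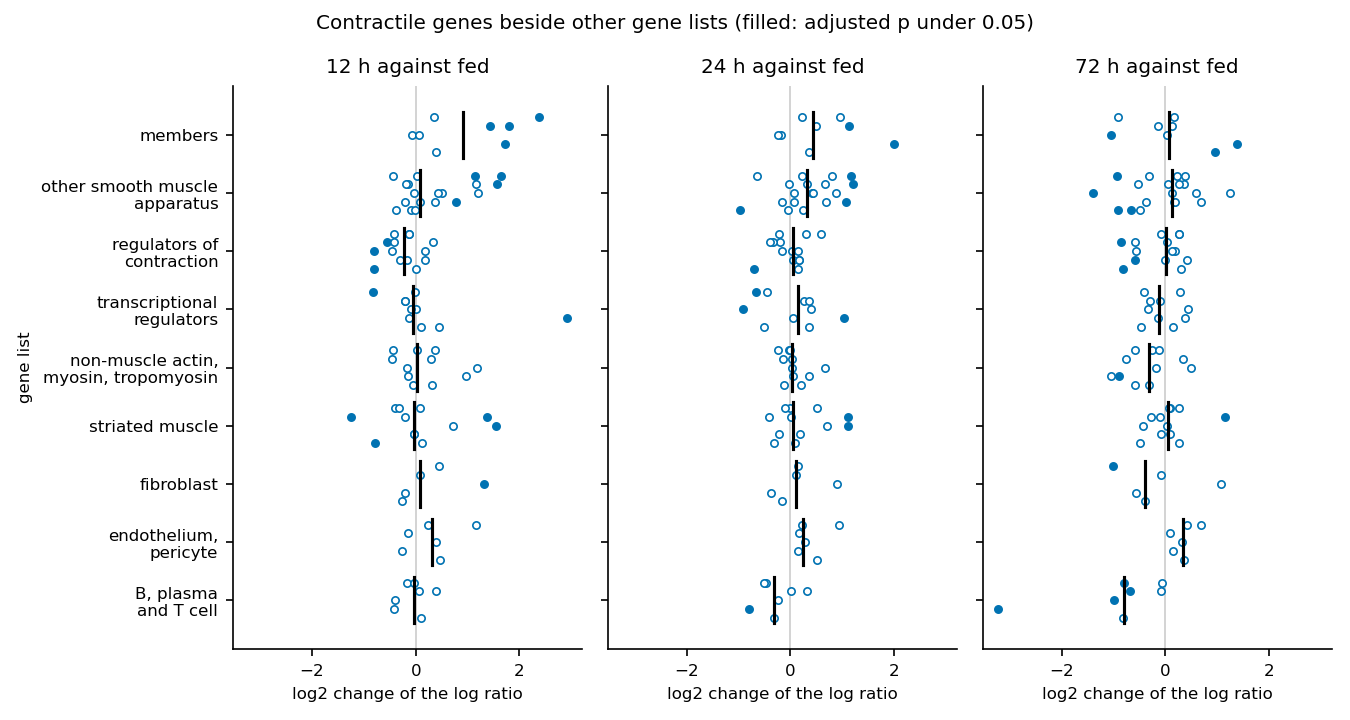
Log2 change of the log ratio (horizontal axis) of each gene with a probe at 12, 24 and 72 h against fed, for the 8 members and for other gene lists (rows), filled where the adjusted p is under 0.05, with a line at the median of each list. At 12 h the median of the members was 0.92 and that of the other smooth muscle apparatus 0.08, and at 72 h the B, plasma and T cell genes had the lowest median, at -0.79.

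Markers of other cells of the gut wall gave the background for a tissue whose make-up could shift. Over all probes, 4.87%, 3.76% and 4.81% were called higher at 12, 24 and 72 h, and 6.02%, 6.26% and 5.79% lower. Of 5 fibroblast genes, Fbln1 was higher at 12 h (1.32 ± 0.38, over 2 fed pools) and Col1a2 lower at 72 h (-1 ± 0.26; 0.25 without a call by its dimmer probe), with medians of 0.08, 0.10 and -0.39. Of 6 endothelial and pericyte genes, none was called at any time point, where 2, 2 and 1 had an unadjusted p under 0.05, and the medians were 0.31, 0.25 and 0.35. A dimmer probe of Rgs5, a pericyte gene, was called higher at 12 h (0.54) and 72 h (0.58). Of 5 genes of enteric neurons and glia, Map2 alone was called, at 72 h (-0.67 ± 0.20). Kit, of the interstitial cells of Cajal, had changes of -0.20, -0.26 and -0.14 and was not well above background on every array. Of 7 enterocyte genes, Anpep was higher at 12 h, at 3.43 ± 0.78, with a Cy5 change of -2.13, and at 72 h Dpp4 was lower, at -0.68 ± 0.19. Lct had a log ratio of 0.45 in the 1 fed pool measured, with a mean of -0.53 over 2 pools at 12 h and -0.66 in the 1 pool at 72 h, where limma's test, which both differences passed, took the spread of a single pool from the other groups. Of 4 goblet and Paneth cell genes, Mmp7 was called at 12 h (2.02) with overlapping pools, Spdef (0.85 ± 0.22) and Fcgbp (0.74 ± 0.20) were higher at 24 h, and Agr2 was lower at 72 h (-1.45 ± 0.24).

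Of 7 genes of B, plasma and T cells, 4 were lower at 72 h, beside 5.79% of all probes. The 4 were Igj (-3.22 ± 0.24), Igh-6 (-0.99 ± 0.18), Ms4a1 (-0.79 ± 0.19) and Ptprc (-0.69 ± 0.21). At 24 h Igj was lower, at -0.81 ± 0.24, and at 12 h none of the 7 was called, where 2 had an unadjusted p under 0.05. Their medians were -0.03, -0.31 and -0.79. Neither the 2 adipose tissue genes nor Cpa1, the 1 gene of the exocrine pancreas, was called, with the log ratio of Cpa1 ranging from -1.62 to 0.78 among the fed pools alone. The mean log ratio of the 8 contractile genes lay between -0.32 and 0.01 on the fed arrays, 0.49 and 1.17 at 12 h and 0.30 and 0.47 at 24 h. At 72 h it lay between -0.26 and 0.03. Over the same 4 groups the mean of the enterocyte genes lay between -0.40 and 0.06, -0.04 and 0.92, 0.13 and 0.29, and -0.22 and -0.10, and that of the goblet and Paneth cell genes between -0.58 and 0.05, 0.14 and 0.99, -0.06 and 0.29, and -0.61 and -0.25. In Cy3 the 8 smooth muscle genes were well above background on all arrays, apart from Des on the third fed array. The part of other cell types in the members' changes was not tested.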

How the data were processed

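RNA of mouse small intestine was measured on 12 two-colour Agilent arrays, 3 per time point (fed, 12, 24 and 72 h). For each array the authors deposited the table of Agilent's Feature Extraction software, which holds the median foreground and background intensity of every spot in both dyes, unnormalized. The deposited log10 ratios of Cy5 over Cy3 and the value table, which holds them with the sign turned, were treated as a score, since the decimal point of some cells had moved. Here the intensities were background-corrected by normexp with an offset of 50 and the 24 channels brought to common quantiles, controls and outlier-flagged spots were left out, and spots were averaged per probe. Log2(Cy3/Cy5), Cy3 and Cy5 were each fitted across all arrays (limma 3.58.1 under R 4.3.3; time points as groups), and p-values were adjusted by Benjamini-Hochberg over all probes. This takes the place of the analysis of variance of the study's methods, whose thresholds were applied as an alternative. The fit was tested on simulated data with 1 spread per probe at all time points. In the arrays the median SD over all probes was 0.29 at 12 h and 0.14 to 0.17 at the other time points. The simulation does not cover this unequal spread. The 8 members and all lists were chosen with earlier results of these data known. Named were every member probe, in each list the called probes with the largest changes (at most 4 per time point, pools not overlapping, Mmp7 apart, as it was the only gene called on its list at 12 h), the 5 probes most like Des and the 5 most like the mean of the members. Srf, Tpm1, Kit, Cpa1 and the dimmer probes were named for their role with values known. Gene loci and promoters are from RefSeq, GRCm38.p6, where all 8 members matched by gene number. Nothing says that pools of different time points are paired. The number of arrays and the signal over background limit the precision. The values of 1 called gene of the list of regulators of contraction are not reported here.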

Additional observations from a re-analysis of the deposited data

Results flagged for a closer look

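Between fasted time points, 7 differences of the members passed limma's test of the difference itself, which is why they are listed. From 12 h to 72 h the log ratio changed by -2.21 for Acta2, -1.94 for Actg2, -1.27 for Myl9, -1.12 for Tpm2 and -1.31 for Smtn. From 24 h to 72 h it changed by -1.13 for Myl9 and -1 for Smtn. In Cy3 alone the 12 h to 72 h changes were -0.85 for Acta2 (limma, adjusted p = 0.114), -0.86 for Actg2, -1.45 for Myl9, -1.21 for Tpm2 and -0.50 for Smtn, and all but that of Acta2 were called. In Cy3 alone from 24 h to 72 h, Myl9 changed by -1.17 and Smtn by -0.59, and both were called. The 12 h and 24 h arrays differ from the 72 h arrays in file format, which cannot be told apart from the time of fasting. With 3 pools per time point, single pools were not tested for standing apart.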

How the results depend on the processing

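The count of members called at 12 h was 1 with median centring, where 3026 of all probes were called, against 2208 in the main fit. It was 0 from the fed and 12 h arrays alone, where no probe at all was called. For 72 h against 12 h it was 2 with median centring and from the arrays compared alone, beside 662 and 607 of all probes. In the main fit it was 5, beside 2180 of all probes. For 72 h against 24 h it was 4 in Cy3 alone and 6 without both pools that stood apart. From the arrays compared alone it was 6, beside 4495 of all probes, against 2 and 2149 in the main fit. For 24 h against 12 h there was 1 in Cy3 alone and 1 at an unadjusted p under 0.01 and 1.4-fold. Where no count over all probes is set beside a member count, nothing is read from it about the members. Leaving out arrays in turn gave 2 to 5 called at 12 h, 1 to 2 at 24 h and 0 to 4 at 72 h against fed, 0 to 2 for 24 h against 12 h, 2 to 5 for 72 h against 12 h and 0 to 5 for 72 h against 24 h. At 72 h it was 0 without the third fed or the first 72 h array and 1 without the first fed or the third 72 h array. The median change at 12 h was 0.65 without background correction, 0.39 with median centring, 0.43 in Cy3 alone and 0.72 to 1.18 with an array left out. At 24 h it was 0.03 with median centring, 0.18 in Cy3 alone and 0.40 to 0.49 with an array left out. At 72 h it was -0.26 with median centring, -0.11 without both pools that stood apart and -0.11 to 0.13 with an array left out. The cause was not tested. With the replicate block, 4, 2 and 3 members were called against fed, beside 1291, 1493 and 1705 of all probes. Pools of the same number did not deviate together (correlations from -0.30 to 0.13), and the labels do not say whether they shared more than a number. The block left every count of members called and every median as it was, while all called probes at 12 h went from 2208 to 1291.

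Changes that turned in sign were none of them called in the report. With median centring they were Myh11 (-0.30), Myl9 (-0.34) and Tpm2 (-0.60) at 12 h, Myh11 (-0.17) and Myl9 (-0.19) at 24 h, and Acta2 (-0.23) and Cnn1 (-0.29) at 72 h. Cnn1 at 12 h was 0.07 with loess and 0.01 with the scanner software's log ratio and the deposited value table, and Actg2 at 72 h was 0 with loess. In Cy3 alone Actg2 was -0.31 at 24 h and Cnn1 -0.38 at 72 h. Without the second fed array Myl9 was -0.29 and Tpm2 -0.28 at 12 h, Myl9 -0.43 at 24 h and Cnn1 -0.02 at 72 h. Without the third fed array, and also without both pools that stood apart, Tpm2 was 0.09 at 24 h and Acta2 -0.37 at 72 h. Tpm2 was -0.04 at 12 h without the third 12 h array, and Acta2 -0.01 at 72 h without the second 72 h array. The highest values with an array left out were 1.01 for Myl9 and 0.41 for Tpm2 at 12 h, 0.87 for Myl9 and 0.09 for Tpm2 at 24 h, and 0.58 for Acta2 and 0.08 for Cnn1 at 72 h. The alternatives that keep outlier spots, leave out both pools or extend to the differences between fasted time points were chosen after seeing the data.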
